A study of Homo sapiens with 4 samples.

Results

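Peaks of RNA bound by NSUN2 that lay in genes for long noncoding RNA (lncRNA) were examined in PANC-1, an established human pancreatic ductal adenocarcinoma cell line labelled wild-type. RNA immunoprecipitation (RIP) with an antibody against NSUN2 was sequenced from cells given 30 mM sodium lactate for 24 h and from cells given the ddH2O vehicle for 24 h, each beside input RNA taken before the precipitation. There were 4 groups of 1 library each, a lactate IP, a lactate input, a vehicle IP and a vehicle input. No value below therefore has a replicate error, and differences between lactate and vehicle are described without a test. Each condition has a deposited list of peaks, called on the IP over the input of that condition. A peak was counted as an lncRNA peak when its annotation gave the biotype lncRNA and a feature other than intergenic. This rule found 3372 of 48104 peaks in the lactate list and 7655 of 95785 peaks in the vehicle list.

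lncRNAs are transcripts without a long reading frame, many of them spliced, that act as nuclear scaffolds, as hosts of small RNAs, in cis on neighbouring genes or in the cytoplasm. NSUN2 places 5-methylcytosine (m5C) on transfer RNA and on some messenger and long noncoding RNA. H19 and NKILA are lncRNAs described as m5C targets of NSUN2 in other tumour cells. A RIP peak marks RNA recovered with the protein and gives neither a methylated base nor a binding site at base resolution.

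A table of start windows gives 300 bases around the transcription start of a gene. In the lactate list, 7 of 568 lncRNA genes with such a window had a peak overlapping it. In the vehicle list 41 of 962 did. A peak can overlap a window without covering the start itself. In 5 genes both lists had such a peak. The sequences below are the windows of 300 bases around the start of the 3 of these genes whose peaks had q under 0.05 in both lists, taken from RefSeq on GRCh38.p14 in the direction of the gene. Capitals mark the bases inside the peaks of both lists.
KIRREL1-IT1: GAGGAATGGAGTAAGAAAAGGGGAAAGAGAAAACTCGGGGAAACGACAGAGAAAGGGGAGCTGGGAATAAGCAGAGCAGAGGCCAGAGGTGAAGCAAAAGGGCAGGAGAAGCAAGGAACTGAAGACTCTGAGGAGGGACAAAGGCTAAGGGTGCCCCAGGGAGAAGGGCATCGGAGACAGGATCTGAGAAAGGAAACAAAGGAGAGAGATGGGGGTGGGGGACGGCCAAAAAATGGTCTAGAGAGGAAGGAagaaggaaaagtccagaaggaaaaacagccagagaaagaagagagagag
ATP2C2-AS1: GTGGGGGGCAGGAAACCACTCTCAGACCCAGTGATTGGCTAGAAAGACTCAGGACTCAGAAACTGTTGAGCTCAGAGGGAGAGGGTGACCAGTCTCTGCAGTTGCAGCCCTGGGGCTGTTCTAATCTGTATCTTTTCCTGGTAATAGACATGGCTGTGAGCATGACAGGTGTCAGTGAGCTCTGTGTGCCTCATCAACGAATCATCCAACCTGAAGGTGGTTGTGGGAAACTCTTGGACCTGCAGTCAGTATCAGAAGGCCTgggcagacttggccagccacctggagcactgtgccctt
THBS2-AS1: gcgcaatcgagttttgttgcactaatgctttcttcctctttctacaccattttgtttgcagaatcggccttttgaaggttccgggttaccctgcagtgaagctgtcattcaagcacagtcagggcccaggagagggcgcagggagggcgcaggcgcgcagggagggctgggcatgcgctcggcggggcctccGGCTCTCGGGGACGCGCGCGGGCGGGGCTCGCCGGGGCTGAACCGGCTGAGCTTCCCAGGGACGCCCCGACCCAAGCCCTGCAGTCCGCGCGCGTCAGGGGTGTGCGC
The KIRREL1-IT1 window lies at chr1:158025300-158025599 on the plus strand, inside the span of the coding gene KIRREL1. Both peaks were annotated to an exon of KIRREL1-IT1, with a fold enrichment of 7.52 in the lactate list and 8.49 in the vehicle list, and shared 251 bases of the window. Of those bases, 202 (80.5%) were A or G, against a median of 50.3% over the 300-base windows of all 35116 genes in the table. The ATP2C2-AS1 window (chr16:84467312-84467611, minus strand) held 262 shared bases, with folds of 4.79 in the lactate list and 5.46 in the vehicle list. In the THBS2-AS1 window (chr6:169212962-169213261, plus strand) 108 bases were shared, 85 of them (78.7%) C or G, and the folds were 5.31 in the lactate list and 9.71 in the vehicle list. The letters CNGGG, a motif described for NSUN2-dependent m5C, were counted on both strands with overlaps allowed. They occurred 4 times in the KIRREL1-IT1 window, 4 times in the ATP2C2-AS1 window and 17 times in the THBS2-AS1 window. CNGGG occurs in 93.0% of all windows of this length, with a median of 5 per window, too common to set these genes apart.

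lncRNA genes held a small part of either list. Their share was 7.01% of the lactate list (95% Wilson interval 6.79 to 7.24) and 7.99% of the vehicle list (7.82 to 8.17). These intervals cover counting error only. The vehicle list had 2.27 times as many lncRNA peaks as the lactate list, and 1.99 times as many peaks of all kinds. Depth differed in the same direction. The lactate IP had 2112446 reads on nuclear genes (13.9% of 15189967) and the vehicle IP had 4125858 (30.3% of 13620414), 1.95 times as many. When the vehicle list was cut to the 48104 peaks with the lowest p, it held 3330 lncRNA peaks (6.92%), close to the 3372 of the lactate list. The part of depth in the difference between the lists was not tested.

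Most lncRNA peaks lay in introns. The lactate list had 1200 in exons and 2172 in introns, and the vehicle list had 2788 in exons and 4867 in introns. The exon share was thus 35.6% (interval 34.0 to 37.2) in the lactate list and 36.4% (35.3 to 37.5) in the vehicle list. Peaks of the same gene are not independent, so these intervals cover counting error only and do not compare the conditions. Over all peaks the exon share was 19.8% in the lactate list and 21.8% in the vehicle list. These shares are not like for like, since untranslated regions of coding genes are listed as features of their own, not as exon. Of 40883 coding peaks in the lactate list, 7668 were listed as exon and 25152 as intron. Of 78491 in the vehicle list, 16497 were exon and 48052 intron. The remaining coding peaks had other features, while every lncRNA peak was listed as exon or intron. In the vehicle list cut to equal size, 1498 of 3330 lncRNA peaks (45.0%) were exonic.

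**Figure D1:**
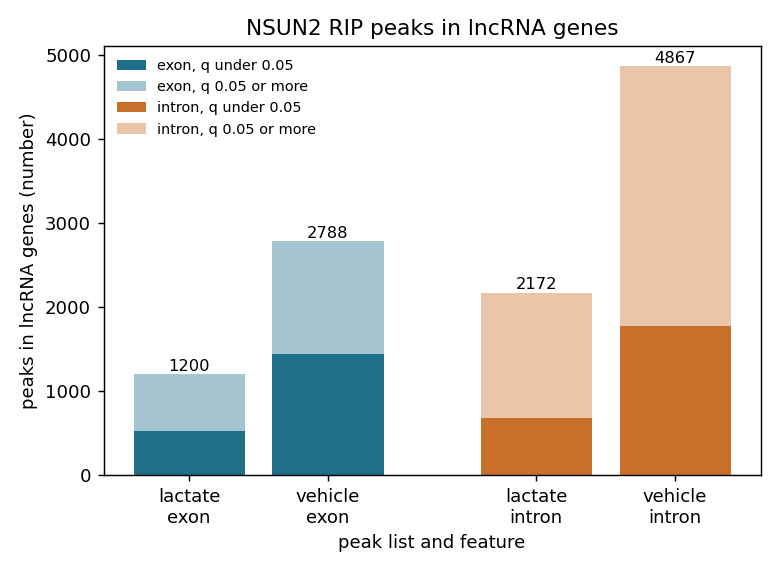
Number of peaks in lncRNA genes (vertical axis) by feature in the lactate and vehicle lists, with the darker part of each bar for peaks at q under 0.05. Both features had more peaks in the vehicle list, with 1200 and 2788 in exons and 2172 and 4867 in introns for lactate and vehicle.

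Peaks in lncRNA genes were about as long as those in coding introns. The median length was 200 bp in the lactate list, which is also the shortest length listed, and 209 bp in the vehicle list, beside 201 bp and 215 bp in coding introns and 225 bp and 241 bp over all peaks. The median fold enrichment, the authors' own value for each peak, was 3.24 in the lactate list and 3.03 in the vehicle list, the same as over all peaks of each list. Listed p-values ran up to 0.0498 in the lactate list and 0.0496 in the vehicle list, and a part of the peaks had q of 0.05 or more. Of the lncRNA peaks, 1202 (35.6%) passed in the lactate list against 42.7% of that list as a whole, and 3216 (42.0%) passed in the vehicle list against 48.6% of that list as a whole. Exon peaks passed more often than intron peaks, 43.9% against 31.1% in the lactate list and 51.7% against 36.5% in the vehicle list.

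Many lncRNA genes lie within or across coding genes, and the library kit used, per the labels' protocols, is not described as keeping strand, so reads of a lncRNA and of a gene overlapping it cannot be told apart. By RefSeq spans, 997 lncRNA peaks (29.6%) of the lactate list and 2157 (28.2%) of the vehicle list lay inside a protein-coding gene. This was more frequent in exons, with 43.1% in the lactate list and 41.8% in the vehicle list, than in introns, with 22.1% in the lactate list and 20.4% in the vehicle list. Where strand could be compared, the coding gene was on the opposite strand for 547 peaks and on the same strand for 286 in the lactate list, and for 1248 and 578 in the vehicle list.

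Overlap between the lists was counted as at least 1 bp shared with any peak of the other list. In the lactate list 1635 lncRNA peaks (48.5%, interval 46.8 to 50.2) overlapped a vehicle peak, against 56.4% of the lactate list as a whole. In the vehicle list 1639 (21.4%, interval 20.5 to 22.3) overlapped a lactate peak, against 27.8% of the vehicle list as a whole. The lncRNA shares were thus below the list as a whole on both sides.

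Feature and peak strength went with these shares. Exon peaks overlapped in 58.0% of cases in the lactate list and 26.1% in the vehicle list. Intron peaks overlapped in 43.2% in the lactate list and 18.7% in the vehicle list. For coding genes the exon shares were higher, 74.2% in the lactate list and 36.4% in the vehicle list. Coding introns were nearer to lncRNA introns, at 47.3% in the lactate list and 24.1% in the vehicle list.

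The strongest lncRNA peaks were nearly all found in both lists, as were the strongest peaks of all kinds. All 80 lncRNA peaks with q under 1e-20 in the lactate list overlapped a vehicle peak, and 225 of 251 such peaks (89.6%) in the vehicle list overlapped a lactate peak. Over all peaks with q under 1e-20 the shares were 99.6% in the lactate list and 87.5% in the vehicle list. At q of 0.05 or more the lncRNA share was 33.3% in the lactate list and 8.88% in the vehicle list. All peaks of the lists at that q overlapped in 38.6% in the lactate list and 11.5% in the vehicle list.

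**Figure D2:**
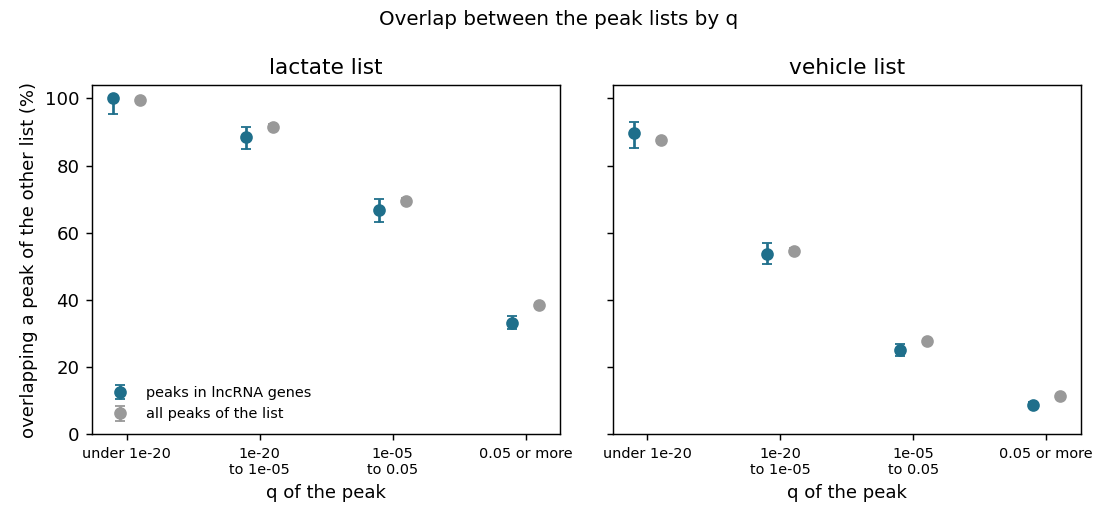
Share of peaks overlapping the other list by at least 1 bp (vertical axis, percent) in 4 ranges of q, for lncRNA peaks and for all peaks, with the lactate list on the left and the vehicle list on the right. Bars are 95% Wilson intervals, which cover counting error only. The share falls from left to right in both lists, to 33.3% and 8.88% of lncRNA peaks at q of 0.05 or more in the lactate and vehicle lists.

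By naming class, 44.99% of lactate-list peaks in genes without a symbol overlapped a vehicle peak (638 of 1418). Peaks in genes named as hosts of small RNAs overlapped in 95 of 142 cases (66.9%, interval 58.8 to 74.1) in the lactate list and in 90 of 300 (30.0%, interval 25.1 to 35.4) in the vehicle list. Antisense genes held 687 peaks of the lactate list and 1587 of the vehicle list, the largest named class in each. Intergenic lncRNAs with LINC names held 413 in the lactate list and 975 in the vehicle list, and divergent transcripts 312 in the lactate list and 784 in the vehicle list. Only 1 lncRNA peak, in the lactate list and with q of 1, overlapped a microRNA hairpin of RefSeq.

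The peaks fell in 1641 lncRNA genes in the lactate list and 3070 in the vehicle list, 3480 genes in all. Of these, 1231 had a peak in both lists, which is 75.0% of the lactate genes and 40.1% of the vehicle genes. In 845 genes a lactate peak and a vehicle peak overlapped. A further 410 genes had peaks in the lactate list only and 1839 in the vehicle list only. Most genes had a single peak, 66.7% of them in the lactate list and 62.6% in the vehicle list. Among the 1231 shared genes, 94 had more peaks in the lactate list, 640 had more in the vehicle list and 497 had the same number. The vehicle list had 1.99 times as many peaks of all kinds. Over genes of every biotype, the lactate list held peaks in 12114 genes and the vehicle list in 16674. How many of those were shared was not counted, so the splits above are not a result particular to lncRNA genes.

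The 8 genes with most peaks in the lactate list were also the 8 with most peaks in the vehicle list. LINC00511, an lncRNA studied as a growth-promoting transcript in several cancers, had 43 peaks in the lactate list and 72 in the vehicle list. PVT1, a host of microRNAs next to MYC, had 46 in the lactate list and 66 in the vehicle list. MIR4435-2HG, a microRNA host gene, had 33 in the lactate list and 64 in the vehicle list. LINC01572 followed with 28 in the lactate list and 57 in the vehicle list, SLC38A4-AS1 with 24 and 52, EPIC1 with 23 and 47, LINC-PINT with 23 and 39 and FTX, a regulator of X inactivation, with 32 and 38, lactate before vehicle in each case. The number of peaks in these genes was lower in the lactate list throughout. JPX, an activator in the X inactivation centre, was among the 94 genes with more peaks in the lactate list, with 14 there and 10 in the vehicle list. At q under 0.05 JPX had fewer peaks in the lactate list than in the vehicle list. Several of its lactate peaks fell on a single vehicle peak of 1622 bp. From chrX:74028136 to chrX:74070384 the spans of JPX and FTX overlap on opposite strands, so reads there cannot be assigned to either gene.

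**Figure D3:**
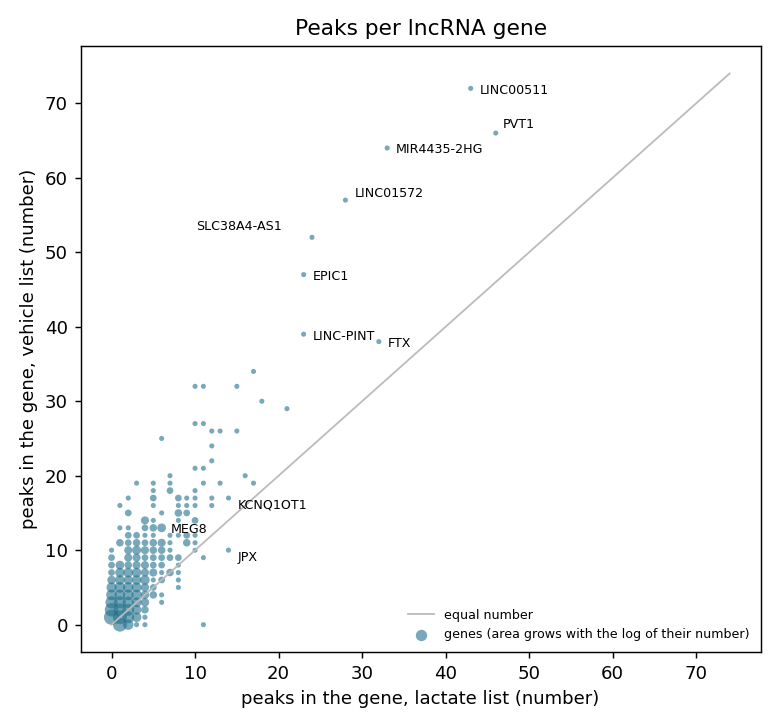
Peaks per lncRNA gene in the lactate list (horizontal axis) against the vehicle list (vertical axis). The line marks equal numbers, and larger points stand for more genes. The genes with most peaks, LINC00511 (43 and 72) and PVT1 (46 and 66 in lactate and vehicle), lie above the line.

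The strongest peaks lay in a few genes. An intron peak of PVT1, 1514 bp long in the lactate list, had the highest lncRNA fold there, 40.98, and its vehicle counterpart of 1382 bp had a fold of 31.0. Another PVT1 intron peak had a fold of 15.8 in the lactate list and the highest lncRNA fold of the vehicle list, 50.1. In the authors' deposited table of both IPs, the first had a read density of 944 in the lactate IP and 364 in the vehicle IP, and the second 62.1 in the lactate IP and 49.7 in the vehicle IP. At each of these peaks the density was higher in the lactate IP, whichever fold over input was higher.

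NEAT1, the scaffold RNA of nuclear paraspeckles, had its widest peak at chr11:65438901-65440869, an exon region, with a fold of 10.2 in the lactate list and 6.11 in the vehicle list. The authors' deposited table gave it a density of 510 in the lactate IP and 156 in the vehicle IP (M, the log2 ratio of lactate over vehicle density, 1.71). NEAT1 had 3 lactate peaks and 2 vehicle peaks, all in exons. The whole NEAT1 transcript was lower in the IPs than in the inputs, with FPKM 6.47 in the lactate IP and 15.0 in the lactate input, and 5.36 in the vehicle IP and 15.4 in the vehicle input. MALAT1, an abundant RNA of nuclear speckles, had 1 peak in each list. It spans chr11:65499535-65499832 in the lactate list, with a low fold of 1.56, and overlaps a vehicle peak with a fold of 1.19.

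Several strong peaks lay where a coding gene overlaps. ENSG00000269570, inside the span of ZFP91 on the opposite strand, had an exon peak at chr11:58611431-58611870 with a fold of 18.2 in the lactate list, against 18.8 in the vehicle list. ENSG00000289100, across TAPBP and RGL2, had a peak at chr6:33299589-33300139 with 4.81 in the lactate list and 5.00 in the vehicle list. ENSG00000289100 itself had 1 read in the lactate IP and none in the lactate input, the vehicle IP or the vehicle input. ENSG00000205041, in the span of AKT2 on the same strand, had a peak of 1089 bp in the vehicle list with a fold of 44.9 that overlapped a lactate peak with a fold of 12.6. Reads at these sites cannot be assigned to the lncRNA or to the coding gene.

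Levels at lncRNA peaks were compared between the IPs in the authors' deposited table of normalized read densities, where 1642 lncRNA peaks were common to both lists. Their median M was 0.067, beside 0.0033 over all 26381 common peaks. It was −0.017 for 752 exon peaks and 0.16 for 890 intron peaks. M was at least 1 at 185 of the 1642 (11.3%, against 9.21% of all common peaks) and at most −1 at 153 (9.32%, against 9.3% of all common peaks). Since all common peaks are centred near 0 in this table, a median near 0 does not show equal recovery in the IPs. Peaks listed for only 1 condition are chosen by that condition, and over all 9393 lncRNA peaks of the table the median M was −0.74, against −0.50 over all peaks. There M was at least 1 at 14.8% (against 13.9% of all peaks) and at most −1 at 45.4% (against 38.6% of all peaks).

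KCNQ1OT1, an imprinted antisense transcript within KCNQ1 that silences neighbouring genes in cis, had the highest M of any common lncRNA peak. That exon peak, at chr11:2647275-2647897, had a density of 22.0 in the lactate IP and 2.28 in the vehicle IP, or an M of 3.27. It had 9 common peaks, 8 with M above 0 and 5 with M of at least 1, and their median of 1.64 was the highest among the 21 lncRNA genes with at least 8 common peaks. The densities summed over its 22 peaks in the table were 242 in the lactate IP and 105 in the vehicle IP. The 5 common peaks with M of at least 1 lay in the middle part of the gene. A peak centred 49622 bases from the start of the 91667-base RefSeq gene had an M of 2.15, and others at 50709, 52409, 57364 and 64584 bases had 2.07, 3.27, 1.69 and 1.64. Between them, M was 0.58 at 55342 bases and 0.60 at 62738 bases. Nearer the start, at 19929 and 15811 bases, M was 0.13 and −0.28.

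The whole KCNQ1OT1 gene had 441 reads in the lactate IP and 20 in the lactate input, and 203 in the vehicle IP and 42 in the vehicle input. Per library total its log2 ratio of lactate IP over vehicle IP was 0.96 (95% counting interval 0.72 to 1.21). With FPKM under 1 in every library, it is not among the genes counted in the comparisons of gene levels, and its log2(FPKM + 1) ratio was 0.18. Its log2 enrichment over input, per library total, was 4.02 (3.38 to 4.75) in lactate cells and 2.64 (2.16 to 3.16) in vehicle cells. KCNQ1OT1 was thus recovered more strongly with NSUN2 in both IPs than in the inputs, and more so in the lactate pair. Since KCNQ1 covers it on the opposite strand, reads of KCNQ1OT1 and of KCNQ1 introns cannot be told apart here.

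**Figure D4:**
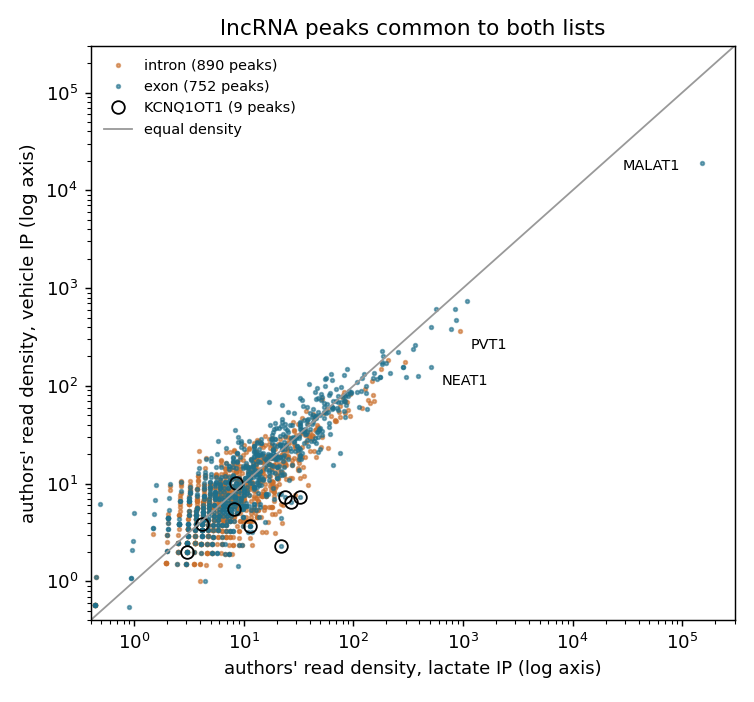
Read density of the authors' table at 1642 lncRNA peaks common to both lists, lactate IP (horizontal, log axis) against vehicle IP (vertical, log axis), by exon or intron, with KCNQ1OT1 circled. The line marks equal density. Most points lie along it, and the KCNQ1OT1 peaks lie mostly below it, up to an M of 3.27.

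Gene levels were taken as FPKM, fragments per kilobase of gene, scaled to the library total, and compared on a log2(FPKM + 1) scale among genes with FPKM of at least 1 in a compared library. FPKM is relative to all fragments, mitochondrial ones included. In bulk RNA, fewer cells and less RNA per cell cannot be told apart. Of 531 lncRNA genes with a peak, 29 were at least 2-fold higher in the lactate IP than in the vehicle IP (5.46%, against 1.64% of all genes) and 175 at least 2-fold lower (33.0%, against 27.7% of all genes). The median was −0.72, close to the −0.74 of all genes. With the median of all genes set to 0 the split turned, to 78 higher and 31 lower. For 269 genes with a peak in both lists 3 were higher and 53 lower, with a median of −0.56. Genes entered the 531 through a peak in either IP, so their shares beside all genes are a description. Of the 29 higher genes, 25 had a peak in the lactate list only. Of the 175 lower genes, 122 had a peak in the vehicle list only. In the inputs, 7 of 227 lncRNA genes with a peak were at least 2-fold higher in lactate cells than in vehicle cells (3.08%, against 1.76% of all genes) and 31 lower (13.7%, against 6.46% of all genes). Their median was −0.45, beside −0.43 for all genes.

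Enrichment in the IP over the input was counted for all lncRNA genes and split by whether they had a listed peak. In lactate cells 121 of 414 (29.2%, against 16% of all genes) were at least 2-fold higher in the IP than in the input and 77 lower (18.6%, against 23.3%). In vehicle cells 223 of 631 (35.3%, against 27.6% of all genes) were higher and 61 lower (9.67%, against 15.3%). The medians were 0.46 in lactate cells, beside −0.10 for all genes, and 0.72 in vehicle cells, beside 0.44 for all genes. lncRNA genes without a listed peak were enriched less often, 7 of 113 (6.19%) in lactate cells and 11 of 136 (8.09%) in vehicle cells, and 57 (50.4%) of them were at least 2-fold lower in the IP in lactate cells and 48 (35.3%) in vehicle cells. The genes with a peak were chosen on IP over input, so their enrichment is a description. lncRNA reads took 2.29% of nuclear reads in the lactate IP and 3.34% in the lactate input, and 1.81% in the vehicle IP and 2.62% in the vehicle input. Without MALAT1 they took 2.11% in the lactate IP and 1.41% in the lactate input, and 1.71% in the vehicle IP and 1.34% in the vehicle input. MALAT1 alone held 57.8% of lncRNA reads in the lactate input and 49.1% in the vehicle input. It held 7.83% in the lactate IP and 5.50% in the vehicle IP. The lncRNA share was lower in the IP than in the input with MALAT1 counted and higher without it, in both conditions.

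Enrichment over input was highest in lactate cells for ENSG00000267904, in the span of SMIM7 on the same strand, with 93 reads in the lactate IP and none in the lactate input. In vehicle cells it was highest for ENSG00000277959, in a region shared with BNIP3 and PPP2R2D, with 90 reads in the vehicle IP and none in the vehicle input (log2 enrichment 4.39), followed by ENSG00000276851 at 2.98. ENSG00000274422, on chromosome 22, was among the 6 highest in both conditions, with a peak of 2703 bp in the lactate list and 2823 bp in the vehicle list. Its FPKM was 20.2 in the lactate IP and 1.68 in the lactate input, and 15.2 in the vehicle IP and 1.10 in the vehicle input. The log2 enrichment of ENSG00000274422 was 2.98 in lactate cells and 2.94 in vehicle cells. MEG3, an imprinted maternally expressed lncRNA, had FPKM 1.13 in the lactate IP and 0.204 in the lactate input, and 1.65 in the vehicle IP and 0.247 in the vehicle input. MEG3 and ENSG00000274422 were both higher in the IP than in the input, in lactate and in vehicle cells. At the other end, MALAT1 had FPKM 28.2 in the lactate IP and 457 in the lactate input, and 34.2 in the vehicle IP and 456 in the vehicle input, a log2 change of −3.97 in lactate cells and −3.70 in vehicle cells. FGD5-AS1 stood at −2.13 in lactate cells and −2.08 in vehicle cells, and CHASERR at −1.94 in lactate cells and −2.03 in vehicle cells. In lactate cells ENSG00000287024 lay between MALAT1 and FGD5-AS1 at −2.17, on 1 read in the IP and 17 in the input.

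SCOC-AS1, antisense to SCOC, had the lowest log2(FPKM + 1) ratio of lactate IP over vehicle IP among lncRNA genes with a peak, −2.70. It had 72 reads in the lactate IP and 1124 in the vehicle IP, with 120 in the lactate input and 259 in the vehicle input. Per library total the log2 ratio of the IPs was −4.12 (counting interval −4.49 to −3.78), and that of the inputs −0.45 (−0.78 to −0.13). SCOC-AS1 had 3 vehicle peaks, 1 of them centred 92 bases from the RefSeq start, and none in the lactate list. All 3 lie in the span of SCOC, so reads there cannot be assigned to SCOC-AS1 or to SCOC. HOXC-AS3, in the HOXC cluster of developmental transcription factors, had 25 reads in the lactate IP and 263 in the vehicle IP, with 39 in the lactate input and 120 in the vehicle input, and its 2 peaks were also in the vehicle list alone. The highest lactate over vehicle ratios rested on few reads, as with ENSG00000254653, which had 16 reads in the lactate IP and none in the vehicle IP. A count of 0 allows up to 3 reads.

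**Figure D5:**
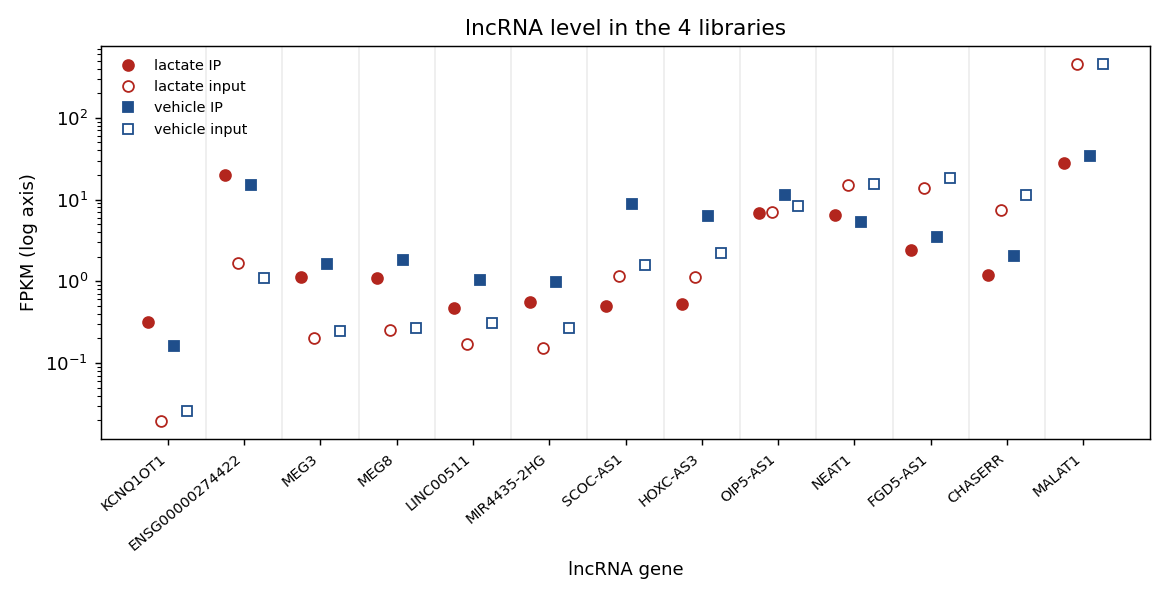
FPKM (log axis) of 13 lncRNA genes in the lactate IP, lactate input, vehicle IP and vehicle input, 1 library each. ENSG00000274422 lies above its inputs in both IPs and MALAT1 below, and SCOC-AS1 has FPKM 0.506 in the lactate IP and 8.81 in the vehicle IP.

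Known lncRNA groups were read as counts, beside all 5537 lncRNA genes of the FPKM table, of which 1303 (23.5%) had a peak in the lactate list and 2319 (41.9%) in the vehicle list. These shares are the background for the counts that follow. Of 11 nuclear and architectural lncRNAs, 9 were in the FPKM table, and 8 of these (88.9%) had a peak in both lists. They held 121 peaks in the lactate list and 143 in the vehicle list. Introns of snoRNA host genes carry the small nucleolar RNAs that guide ribosomal RNA modification. Of 21 such genes, all in the FPKM table, 10 had a peak in the lactate list (47.6%) and 14 in the vehicle list (66.7%). Peaks there numbered 27 in the lactate list and 53 in the vehicle list, with SNHG14 alone at 13 and 26. Of 14 microRNA host genes, 13 were in the FPKM table, and of these 8 had a peak in the lactate list (61.5%) and 10 in the vehicle list (76.9%). Of 19 lncRNAs described in pancreatic cancer, 13 were in the FPKM table. Of these 9 had a peak in the lactate list (69.2%) and 10 in the vehicle list (76.9%). HOTAIR, a lncRNA of the HOXC locus, had 1 peak in each list, and these did not overlap. The lactate peak had a fold of 1.85 and did not pass q under 0.05, and the vehicle peak had a fold of 3.94 and did. FPKM of HOTAIR was 1.79 in the lactate IP and 1.54 in the lactate input, and 4.74 in the vehicle IP and 1.97 in the vehicle input.

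Of 7 noncoding RNAs linked to NSUN2 or m5C, 5 were in the FPKM table. Of these, 1 had a peak in the lactate list (20%) and 4 in the vehicle list (80%). The 5 include VTRNA1-1, a vault RNA and not an lncRNA, which had no peak in either list. These shares are therefore not over lncRNA genes alone. Not all of the peaks counted had q under 0.05. The lactate peak, in NKILA, had q of 0.32. The vehicle peak of LINC00324 also missed this limit, with 5 reads of the gene in the vehicle IP. NKILA, an inhibitor of NF-kB signalling, had 1 peak in the lactate list and 2 in the vehicle list, on 12 reads in the lactate IP and 25 in the vehicle IP. H19, an imprinted lncRNA that hosts a microRNA, had a peak in the vehicle list only, at chr11:1995061-1995403 with a fold of 2.46. That peak overlaps the span of the coding gene MRPL23. H19 had 61 reads in the lactate IP and 81 in the lactate input, and 143 in the vehicle IP and 116 in the vehicle input. With these counts the vehicle IP stood above its input and the lactate IP below its input.

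Marker genes of the line and of other cell types were read in each library. The 7 ductal epithelium and PANC-1 markers summed to FPKM 180 in the lactate IP, 246 in the lactate input, 526 in the vehicle IP and 401 in the vehicle input. Markers of immune cells, endothelium, and Schwann cells and neurons each summed to at most 0.03 in every library. The fibroblast markers found in the table summed to 1.31 in the lactate IP, 1.56 in the lactate input, 2.18 in the vehicle IP and 1.95 in the vehicle input. Outside these lists, 1 lncRNA gene, not named here, with 11 peaks in the lactate list and none in the vehicle list had FPKM above 0 in the lactate IP alone. Whether RNA of other cells has a part in that library was not tested.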

How the data were processed

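RNA of 4 libraries was measured by RIP-seq in PANC-1, with lactate or vehicle, 1 IP and 1 input library per condition. Per the labels' protocols, lysates were incubated for 4 hours with the antibody and libraries were made with a SMART-Seq v4 kit. Per the submitters' processing notes, the build was GRCh38 and the software MACS2 2.2.7.1, HISAT2 2.1.0, HOMER 4.11.1, DiffBind, bedtools 2.29.2 and fastp 0.20.1. Neither the annotation release nor the use of strand is named by any source read. Per the file headers, the deposited gene values are FPKM, and the deposited peak lists give for each peak a fold enrichment (a ratio), its p-value, its q-value and the −log10 of each. The authors also deposited a comparison of the IPs with a normalized read density (signal) per library and log2 values M and A, per the file headers. How the densities were normalized is not stated.

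Peak coordinates were taken as 1-based. Overlaps, shares and intervals were computed with pandas 2.3.3, numpy 2.4.6 and scipy 1.17.1 and tested on simulated data. Whole reads were recovered from FPKM within 1e-06 for 72378 of 72387 values above 0. They gave totals of 15189967 in the lactate IP, 11175432 in the lactate input, 13620414 in the vehicle IP and 17626197 in the vehicle input, and the intervals of read ratios, which cover counting error only. A pseudocount of 1 and a minimum FPKM of 1 were used, with pseudocounts of 0.1 and 5 as alternatives. RefSeq names, spans and start windows come from GRCh38.p14, in which 1430 of 1498 gene symbols were found. The other 1982 genes have no symbol in the files.

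Members and gene lists were chosen with earlier results of these data known. Genes named were the 8 with most peaks and the 8 with the smallest q per list, the 6 highest and 6 lowest in each FPKM comparison, and members of the lists. Peaks named were the 5 with the smallest q and the 5 highest folds at q under 0.05 per list. KIRREL1-IT1, ATP2C2-AS1 and THBS2-AS1 were chosen for their start windows, after their values were seen.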

Additional observations from a re-analysis of the deposited data

Results flagged for a closer look

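For 5 named lncRNA genes the reads of the IP over the input, per library total, moved in opposite directions in lactate and vehicle cells. On that total the counting intervals were clear of 0 in each. Reads on nuclear genes took 13.9% of the total in the lactate IP and 20.9% in the lactate input. In the vehicle IP they took 30.3% and in the vehicle input 31.3%. Ratios per nuclear read would be higher in lactate cells. How far those lie below 0, and whether their intervals stay clear of 0, thus depends on the total used. Intervals per nuclear read were not computed. The difference itself was not tested, and each library is a single sample. Log2 ratios of IP over input, per library total and without a pseudocount, were as follows. SCOC-AS1, whose peaks lie in the span of SCOC, stood at −1.18 in lactate cells and 2.49 in vehicle cells. HOXC-AS3 stood at −1.08 in lactate cells and 1.50 in vehicle cells. H19 stood at −0.85 in lactate cells and 0.67 in vehicle cells. Of the unnamed genes, ENSG00000276261 stood at −3.44 in lactate cells and 4.46 in vehicle cells, and ENSG00000287024 at −4.53 in lactate cells and 1.47 in vehicle cells. Both rest on at most 17 reads in any library.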

How the results depend on the processing

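No paired analysis was possible because each group has 1 library, so leaving out a replicate was not an option. Beside the choices made at the start, equal list sizes for counts and shares, removal of peaks inside a coding gene, lncRNA peaks alone in the other list and common peaks alone were chosen after seeing the data. Peak sequences and a motif count per peak were not run, since they need a genome. Requiring a single annotated gene changed nothing.

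At q under 0.05 the lactate list held 1202 lncRNA peaks (5.85% of its peaks, 43.8% in exons) and the vehicle list 3216 (6.91%, 44.8% in exons). With a fold of at least 2 added there were 1198 in the lactate list and 3192 in the vehicle list. A fold of at least 2 alone gave the vehicle list a share of 7.73% and an exon share of 38.7%. Without peaks inside a coding gene the exon share was 28.8% in the lactate list and 29.5% in the vehicle list. lncRNA genes with a peak at q under 0.05 numbered 665 in the lactate list and 1620 in the vehicle list, with 541 in both (81.4% of the lactate genes, 33.4% of the vehicle genes). Without peaks inside a coding gene, 1084 genes had a lactate peak and 807 a peak in both lists. Lactate-list peaks overlapped the vehicle list in 30.2% at a reciprocal 50%, 64.4% at q under 0.05 in both lists and 76.0% at q under 0.05 in the lactate list. The vehicle-list values were 13.5%, 24.5% and 38.7%, and 20.2% without peaks inside a coding gene. With equal list sizes the vehicle list held 3330 lncRNA peaks (6.92%, 45.0% in exons) in 1658 genes, genes in both lists made up 57.5% of the lactate genes and 56.9% of the vehicle genes, and overlap was 37.7% in the lactate list and 38.2% in the vehicle list. Median M was −0.20 at A of at least the median, −0.71 in exons, −0.24 relative to all peaks and 0.067 at common peaks. With pseudocount 0.1, 53 genes were higher and 296 lower in the lactate IP over the vehicle IP, 175 and 42 in the lactate IP over its input, and 329 and 29 in the vehicle IP over its input. With pseudocount 5 these were 0 and 13, 3 and 4, and 21 and 4. With the median of all genes set to 0, lactate IP over vehicle IP gave 78 higher and 31 lower, which turns the split, and vehicle IP over its input 83 and 34. The cause of these shifts was not tested. Of named genes past 2-fold, none changed direction, while 50 of 73 values fell under 2-fold with pseudocount 5 and 10 of 73 with the median set to 0.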

Other observations

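The MALAT1 peak and the MALAT1 gene gave different values, on unlike scales. In the authors' deposited table the MALAT1 peak had a density of 151574 in the lactate IP and 19235 in the vehicle IP, a log2 ratio M of 2.98. The FPKM table gave the whole gene 3782 reads in the lactate IP and 4112 in the vehicle IP. Per library total this was a log2 ratio of −0.28 (counting interval −0.34 to −0.21). Relative to reads on nuclear genes, 2112446 in the lactate IP and 4125858 in the vehicle IP, the gene was also higher in the lactate IP. The peak density in either IP exceeds the reads of the whole gene, and the scale of the densities is not stated.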
